A study of Mus musculus with 4 samples.

Results

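Ad IIa is a label that the authors gave to nuclei prepared from mouse fat. In the epigonadal library it covered 590 nuclei, chosen here as every nucleus that carries that label and the epigonadal sample name in the deposited annotation. They made up 37.7% of the 1564 labelled epigonadal nuclei, and the library held 5043 barcodes in all. The other 4 labels were Ad Ia with 106 nuclei, Ad Ib with 152, Ad IIb with 58 and Ad IIc with 658, and 3479 barcodes had no label. The label is a cluster of these same nuclei, so its contrast with the others describes the annotation and was not tested.

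The study set nuclei of thymic fat beside nuclei of epigonadal white fat, the large visceral depot of male mice next to the epididymis. The epigonadal library came from 4-month-old male wild-type C57/BL6 mice labelled naïve and kept on standard chow, and the thymic library used at the end came from males of the same age, genotype and treatment, with 6 thymi pooled. The sources used here do not say how many animals gave the epigonadal fat, and the extraction text describes thymic capsules, from which the buoyant adipocyte layer was taken for nuclei and droplet sequencing. Each tissue is represented here by 1 library, so the differences below could not be checked between replicates. A thymic multiome library from older female mice was not used here. Intervals are at 95% and express the error of counting UMIs or nuclei alone.

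White fat is made of adipocytes, which store triglyceride in a large droplet and secrete adiponectin, and of a dense bed of capillaries. Endothelial cells line those capillaries. They carry fatty acids from the blood to the adipocyte, using the lipase anchor Gpihbp1, the fatty acid translocase Cd36, the binding proteins Fabp4 and Fabp5 and the nuclear receptor Pparg, several of which adipocytes also use.

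The sample is labelled adipocyte, while endothelial genes were high in the Ad IIa nuclei. The 5 marker genes were chosen with earlier results of these data known, so their direction does not test the label. The endothelial genes Pecam1, Cdh5 and Flt1 and the shared gene Pparg were all more than 2-fold higher in Ad IIa than in the other labels together. So was Cd247, which encodes a chain of the T cell receptor complex. The adipocyte genes Adipoq, Plin1 and Cidec were more than 2-fold lower. For Adipoq this came from Ad IIc, since Ad IIa was near Ad Ia and above Ad Ib and Ad IIb. Cfd was higher in Ad IIa than in Ad Ia, and Car3 was near its Ad Ia level. The nuclei are therefore called by their label, and no cell type name is given to them.

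Ad IIa nuclei held 1301035 UMIs, of which 1237126 came from nuclear-encoded genes, against 920763 in the other 4 labels together. The median nucleus had 1916 UMIs (504 to 5976) and 1089.5 detected genes, with 4.63% mitochondrial UMIs in the authors' table. Depth differed between labels, from a median of 678.5 UMIs in Ad Ib to 2313 in Ad IIb. Ad IIc gave 56.1% of the nuclear-encoded UMIs of the other labels, so a contrast with them is mostly a contrast with Ad IIc. Ribosomal protein genes made up 38364 CPM (UMIs scaled to the nuclear-encoded total of the label) in Ad IIa, against 15927 (Ad Ia), 27318 (Ad Ib), 27618 (Ad IIb) and 84762 (Ad IIc). RNAs retained in the nucleus (Malat1, Neat1, Meg3) summed to 10402 CPM in Ad IIa, against 44681 (Ad Ia), 39700 (Ad Ib), 12029 (Ad IIb) and 1829 (Ad IIc). Their part in the results below was not tested.

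Levels are given as CPM of the summed nuclei of a label, and differences as log2 ratios of Ad IIa over the other 4 labels summed, with 0.5 UMI added to each sum. Among 10892 genes that reached 10 UMIs with both sides added, 1871 (17.2%) were more than 2-fold higher in Ad IIa and 2015 (18.5%) more than 2-fold lower, and the median gene was at 0.04. These shares and this median are the background for each list set against the other 4 labels. Median-of-ratios scaling lowered every ratio by 0.37 and gave 1081 higher and 3072 lower, or 26.0% higher among genes past 2-fold in place of 48.1%. List medians between 0 and 0.37 would change sign under it.

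Endothelial identity genes were high in Ad IIa almost without exception. Of 20 members, 19 were more than 2-fold higher than in the other labels, against 17.2% of all genes, and 0 were lower, with a median log2 ratio of 2.04 (range 0.55 to 2.63). Summed over the list, Ad IIa had 16222 UMIs, or 13113 CPM (12912 to 13316). Ad Ia, Ad Ib, Ad IIb and Ad IIc had sums of 1274, 2960, 14608 and 781 CPM, with 3762 in the unlabelled barcodes. Ad IIa and Ad IIb stood together and far above the remaining labels. The log2 ratio of the sum was 2.01 (1.95 to 2.07), and 1.03 with Ad IIc left out of the other labels.

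Pecam1, an adhesion receptor at endothelial junctions (ENSMUSG00000020717, GRCm38 chromosome 11, 106654213 to 106715281), had 890 CPM (838 to 944) in Ad IIa. The other labels, from Ad Ia to Ad IIc, had 132, 283, 1322 and 48.4 CPM, and the log2 ratio was 1.63 (1.44 to 1.83). Ad IIb was thus the highest label and Ad IIa the second. Cdh5 encodes VE-cadherin, the cadherin of endothelial junctions (ENSMUSG00000031871, chromosome 8, 104101613 to 104144504). Its level was 628 CPM in Ad IIa against 76.6 (Ad Ia), 150 (Ad Ib), 490 (Ad IIb) and 58.1 (Ad IIc), a log2 ratio of 2.17 (1.90 to 2.46). Flt1, a receptor for vascular endothelial growth factor (ENSMUSG00000029648, chromosome 5, 147561604 to 147726438), had 1634 CPM in Ad IIa against 181, 457, 2387 and 124 in Ad Ia, Ad Ib, Ad IIb and Ad IIc, a log2 ratio of 1.64 (1.501 to 1.79). At least 1 UMI of Pecam1 was found in 425 of 590 nuclei (72.0%), of Cdh5 in 368 (62.4%) and of Flt1 in 484 (82.0%).

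Among the other identity genes, Adgrl4, an adhesion G protein-coupled receptor of endothelium, had the highest ratio of the list at 2.63 (2.42 to 2.84), with 1398 CPM in Ad IIa, 952 in Ad IIb and 40.7 in Ad IIc. Cyyr1, which encodes a small membrane protein, had 2174 CPM in Ad IIa and 2167 in Ad IIb, against 91.1 in Ad IIc. The angiopoietin receptor Tek was at 367 CPM and its partner Tie1 at 168, with log2 ratios of 2.02 and 2.40. Nos3, the endothelial nitric oxide synthase, was the member that stayed within 2-fold, at 84.9 CPM in Ad IIa, 142 in Ad IIb and 34.9 in Ad IIc (log2 0.55, 0.07 to 1.07).

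Set against single labels, 19 of 20 identity genes were more than 2-fold higher than in Ad Ia (24.7% of all genes; median 3.34) and 20 of 20 than in Ad IIc (37% of all genes; median 3.94). Against Ad IIb, 0 of 20 were past 2-fold in either direction (15.5% of all genes higher, 10.3% lower), and the median was −0.08. All 20 were above the unlabelled barcodes, at 158% to 460% of that level. The heat map of levels by label shows Ad IIa and Ad IIb alike over the endothelial block and unlike over single adipocyte genes.

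**Figure D1:**
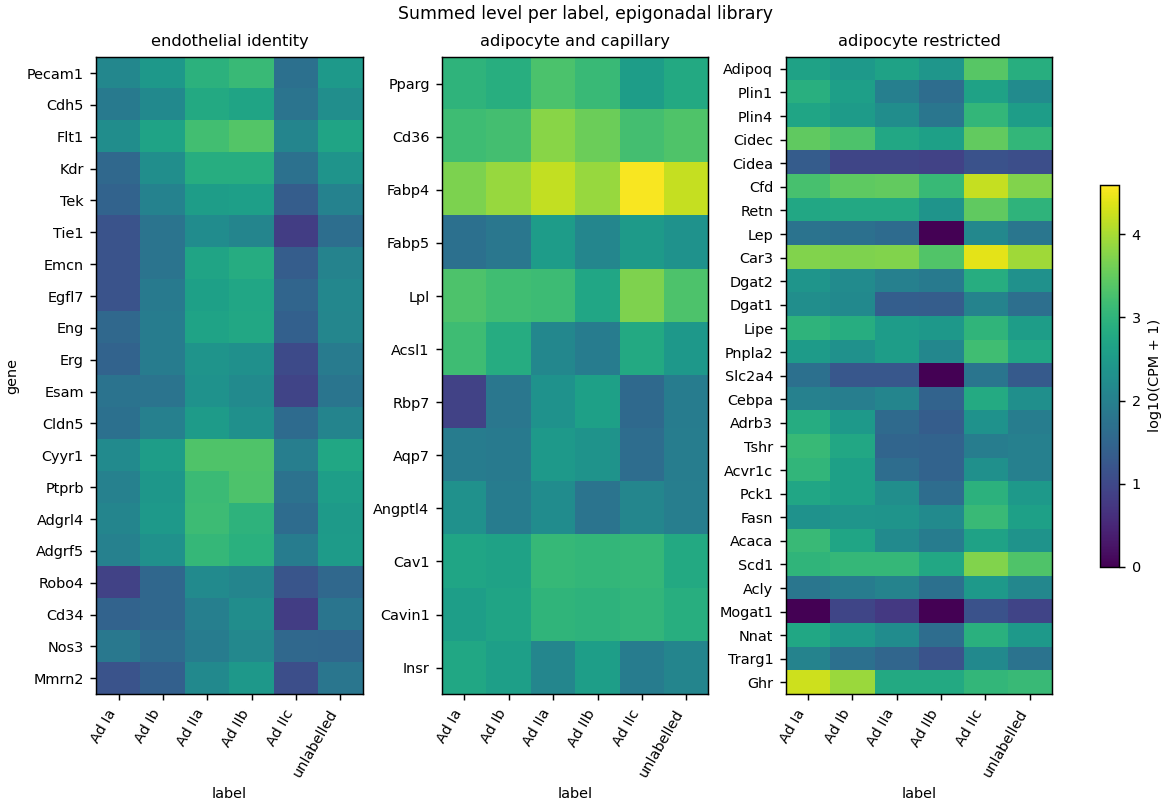
Summed level of single genes (vertical axis, 27 of the 28 adipocyte genes) in each label and in the unlabelled barcodes (horizontal axis), as log10 of CPM plus 1 on the colour scale, with each label 1 column of 1 library. Endothelial genes are high in Ad IIa and Ad IIb (Pecam1 890 and 1322 CPM) and low in Ad IIc (48.4), and most adipocyte genes are highest in Ad IIc or Ad Ia (Adipoq 2513 CPM in Ad IIc, 449 in Ad IIa).

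The transcription factors that keep endothelial cells in their state followed the identity genes. Of 24 measured, 21 were more than 2-fold higher (17.2% of all genes) and 0 lower (18.5%), with a median of 1.499. Fli1, an ETS factor, was at 1855 CPM in Ad IIa against 230 (Ad Ia), 399 (Ad Ib), 1300 (Ad IIb) and 81.4 (Ad IIc) (log2 2.48, 2.31 to 2.66). Its relative Erg was at 238 CPM (2.18), and Dach1, a nuclear cofactor, at 1769 (2.45). The 3 factors within 2-fold were Mef2c (0.95), Lmo2 (0.81) and Meox1 (0.52). Over Ad IIb alone, 1 of 24 was more than 2-fold higher (15.5% of all genes) and 3 lower (10.3%), with a median of −0.41. The list summed to 10802 CPM in Ad IIa and 13827 in Ad IIb. Ldb2, a LIM-domain binding cofactor, was higher in Ad IIb, at 2046 CPM against 828 in Ad IIa, a log2 ratio of −1.31 (−1.50 to −1.11). The arterial factor Sox17 was at 192 CPM in Ad IIb and 97.0 in Ad IIa.

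ETS factors bind DNA around a GGAA core, and the promoters of identity genes are shown for that reason. RefSeq promoters (GRCm38.p6, 300 bases, 250 before the start and 50 after) were available for 14 of the 20 identity genes. The word CAGGAA, searched on both strands, was in 10 of the 14 (71.4%), in 2 of 18 adipocyte genes described below (11.1%) and in 33.4% of all 27025 genes. A gene was counted when any of its promoters held the word. CCGGAA was in 2 of 14 (16.7% of all) and GGAAGT, which can overlap CAGGAA by the core, in 6 of 14 (26.5% of all). The words were chosen after others had been looked at, and a match describes letters, not a site. The 250 bases before the start follow for the 3 identity genes with the most Ad IIa UMIs among those that hold the word there, with CAGGAA or its complement TTCCTG in capitals. Cyyr1 lies on the minus strand (chr16:85550374-85550623), Adgrf5 on the plus strand (chr17:43360181-43360430) and Emcn on the plus strand (chr3:137340828-137341077).
Cyyr1: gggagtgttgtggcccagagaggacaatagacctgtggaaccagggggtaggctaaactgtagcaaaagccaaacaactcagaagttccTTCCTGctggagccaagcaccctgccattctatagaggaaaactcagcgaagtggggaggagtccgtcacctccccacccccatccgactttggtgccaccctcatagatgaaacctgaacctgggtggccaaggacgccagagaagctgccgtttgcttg
Adgrf5: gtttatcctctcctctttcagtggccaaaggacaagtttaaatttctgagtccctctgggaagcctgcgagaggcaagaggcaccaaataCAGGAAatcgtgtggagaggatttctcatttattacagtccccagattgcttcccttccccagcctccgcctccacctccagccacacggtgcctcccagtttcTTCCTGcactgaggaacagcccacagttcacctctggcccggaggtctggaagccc
Emcn: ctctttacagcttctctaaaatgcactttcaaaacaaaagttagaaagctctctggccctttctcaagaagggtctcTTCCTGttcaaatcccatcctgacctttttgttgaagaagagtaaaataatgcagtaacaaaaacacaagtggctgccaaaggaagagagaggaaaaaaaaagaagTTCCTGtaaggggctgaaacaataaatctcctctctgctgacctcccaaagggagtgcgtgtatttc
Cyyr1 holds the word at 1 place, and Adgrf5, an adhesion receptor with 1143 CPM in Ad IIa, and Emcn, the sialomucin endomucin with 477 CPM, at 2 places each.

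The receptors of vascular growth signals were high in Ad IIa, and 4 ligands were low. Of 14 VEGF and angiopoietin genes measured, 8 were more than 2-fold higher (17.2% of all genes) and 4 lower (18.5%), with a median of 1.33, and the 4 were Vegfa, Vegfb, Vegfc and Angpt1. Among the higher genes, Flt1, Kdr, Tek, Tie1 and Ptprb are also on the endothelial identity list. Most of the higher count thus repeats that list, and no direction is read for the remaining genes. The receptor Kdr had 719 CPM in Ad IIa and 50.4 in Ad IIc (log2 2.06), and the co-receptors Nrp1 and Nrp2 had 1246 and 353 CPM (1.78 and 2.45). The ligand Vegfa had 7 UMIs in all Ad IIa nuclei, or 5.66 CPM, against 341 CPM in Ad Ia and 99.8 in Ad Ib (log2 −3.72, −5.17 to −2.69). Angpt1, the ligand of Tek, had 16 UMIs, or 12.9 CPM, against 620 in Ad Ia and 341 in Ad Ib (−3.73). Vegfb was highest in Ad IIc, at 246 CPM against 48.5 in Ad IIa (−1.64).

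Bmp6, a secreted bone morphogenetic protein, was the ligand that set Ad IIa apart from every other label, including Ad IIb. It had 1177 UMIs, or 951 CPM (898 to 1007), in Ad IIa. The other labels had 125 (Ad Ia), 183 (Ad Ib), 156 (Ad IIb) and 25.2 CPM (Ad IIc). The log2 ratio was 3.54 (3.21 to 3.90), and 374 nuclei (63.4%) held a UMI. Among BMP, TGF beta and sphingosine phosphate genes as a list, 8 of 12 measured were more than 2-fold higher (17.2% of all genes) and 0 lower (18.5%), with a median of 1.13. Compared with Ad IIb alone, 1 of 12 was higher (15.5% of all genes) and 3 lower (10.3%), with a median of −0.40. The co-receptor Eng had 459 CPM (1.96) and the receptor S1pr1 401 CPM (1.81). In the Notch list 6 of 12 measured were higher (17.2% of all genes) and 2 lower (18.5%; median 0.98). The Notch sum was 643 CPM in Ad IIa, against 620 (Ad Ia), 699 (Ad Ib), 938 (Ad IIb) and 116 (Ad IIc). It was thus above Ad IIc alone beyond counting error. By single genes, 8 of 11 were more than 2-fold higher than in Ad Ia (24.7% of all genes) and 2 lower (19.2%). Over Ad IIb, 2 of 11 were higher (15.5%) and 5 lower (10.3%), with a median of −0.38. Notch1 had 216 CPM (1.69), while the ligand Dll4 had 38.0 CPM in Ad IIa and 92.4 in Ad IIb.

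Junction genes were higher in 11 of 15 measured (17.2% of all genes) and lower in 0 (18.5%), with a median of 1.73. Among the higher ones, Cdh5, Pecam1, Cldn5 and Esam are also endothelial identity genes and were counted there. In the contrast with Ad IIb, 0 of 15 were higher (15.5% of all genes) and 1 lower (10.3%), with a median of 0.25. Jam2, a junctional adhesion molecule, had 351 CPM in Ad IIa and 7.75 in Ad IIc (2.39), and the scaffold Tjp1 had 619 and 81.4 CPM (2.04). Jam3, a relative of Jam2, had 37.2 CPM in Ad IIa and 213 in Ad IIb (−2.53 over Ad IIb, −3.21 to −1.80). Caveolar genes, which adipocytes and endothelium both use, had 0 of 10 higher, 1 lower and a median of 0.27. Their sum was 4034 CPM in Ad IIa, near those of Ad IIb (3759) and Ad IIc (4101) and above those of Ad Ia (1414) and Ad Ib (1663), and 7 of 10 were more than 2-fold higher than in Ad Ia (24.7% of all genes). Cav1 had 1218 CPM in Ad IIa against 515 (Ad Ia), 441 (Ad Ib), 1123 (Ad IIb) and 1135 (Ad IIc). Of 12 basement membrane genes 4 were higher (17.2% of all genes) and 1 lower (18.5%; median 0.42), too few beside those shares to be read for the list. Lama5 was highest in ratio at 71.1 CPM (1.55). Of 15 guidance genes 8 were higher (17.2% of all genes) and 1 lower (18.5%; median 1.06), led by the semaphorin Sema6a at 1174 CPM in Ad IIa and 647 in Ad IIb (2.84, 2.60 to 3.09). Sema6a does not stand for the list in the contrast with Ad IIb. There 0 of 14 guidance genes were more than 2-fold higher (15.5% of all genes) and 5 lower (10.3%), with a median of −0.64. The guidance sum was 3254 CPM in Ad IIa and 3680 in Ad IIb.

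Among vessel beds, the capillary list had the largest share of genes that were higher in Ad IIa. Of its 12 genes 10 were more than 2-fold higher (17.2% of all genes) and 0 lower (18.5%), with a median of 2.05, although the summed log2 ratio was −0.07 because Fabp4 holds most of the sum and was highest in Ad IIc. Gpihbp1 had 441 CPM in Ad IIa, 341 in Ad IIb and 31.0 in Ad IIc (2.55). Car4, a membrane carbonic anhydrase, had 318 CPM (288 to 352) in Ad IIa against 13.9 (Ad Ia), 49.9 (Ad Ib), 49.7 (Ad IIb) and 23.2 (Ad IIc), a log2 ratio of 3.42 (2.88 to 4.06). The water channel Aqp1 had 483 CPM in Ad IIa against 41.8 (Ad Ia), 74.8 (Ad Ib), 63.9 (Ad IIb) and 60.1 (Ad IIc), a log2 ratio of 3.002 (2.61 to 3.44). Car4 and Aqp1 were therefore high in Ad IIa alone among the 5 labels.

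Arterial genes divided Ad IIa from Ad IIb. Of 8 measured in that contrast, 8 were more than 2-fold lower in Ad IIa (10.3% of all genes) and the median was −1.76. The arterial sum was 493 CPM in Ad IIa and 1741 in Ad IIb. Gja5, a gap junction protein of arteries, had 1 UMI in Ad IIa and 107 CPM in Ad IIb. Fbln5, an elastic fibre protein, had 26.7 and 284 CPM (−3.41, −4.12 to −2.71), the semaphorin Sema3g 82.4 and 369 (−2.17) and the ephrin Efnb2 163 and 433 (−1.42). At least 2 arterial genes were found in 115 of 590 Ad IIa nuclei (19.5%, 16.4 to 22.9) and in 38 of 58 Ad IIb nuclei (65.5%, 51.9 to 77.5), whose median depth was also higher. Plvap, a protein of fenestrae and caveolae, had 32.3 CPM in Ad IIa and 313 in Ad IIb (−3.27). Against the other 4 labels together (17.2% of all genes higher, 18.5% lower), venous genes were mixed, with 5 of 10 measured higher and 2 lower. Of the tip cell genes of sprouting vessels, 2 of 5 measured were higher and 0 lower, too few to read. Of the lymphatic markers Prox1, Mmrn1 and Ccl21a, 1 nucleus held 12 of the 13 UMIs.

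Single genes that adipocytes and capillary endothelium share differed in direction. Of 12, 4 were more than 2-fold higher and 2 lower, with a median of 0.42. With 17.2% of all genes higher and 18.5% lower, nothing is read from these counts for the list. Pparg, the nuclear receptor that drives fat cell formation (ENSMUSG00000000440, chromosome 6, 115360879 to 115490404), had 2012 CPM (1934 to 2093) in Ad IIa. The other labels had 989 (Ad Ia), 773 (Ad Ib), 1329 (Ad IIb) and 356 CPM (Ad IIc), so Ad IIa was highest and Ad IIc, the label with the most Adipoq, lowest. The log2 ratio was 1.61 (1.48 to 1.74), and 487 nuclei (82.5%) held a UMI. Cd36 had 6125 CPM in Ad IIa against 1476 (Ad Ia), 1705 (Ad Ib), 3744 (Ad IIb) and 1678 (Ad IIc) (1.64, 1.57 to 1.71), with a UMI in 582 nuclei (98.6%).

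Aqp7, a glycerol channel, had 303 CPM in Ad IIa, 83.6 in Ad Ia, 227 in Ad IIb and 42.6 in Ad IIc (1.89). Rbp7, a retinol binding protein, had 224 CPM in Ad IIa and 412 in Ad IIb (1.26). Fabp4 had 15308 CPM in Ad IIa against 4951 (Ad Ia), 7634 (Ad Ib), 7631 (Ad IIb) and 36251 (Ad IIc) (−0.60). Lpl, the lipase that adipocytes secrete for capillaries to hold, had 1425 CPM in Ad IIa, 2033 in Ad Ia, 533 in Ad IIb and 5149 in Ad IIc (−1.29). Acsl1, an acyl-CoA synthetase, had 133 CPM in Ad IIa and 1469 in Ad Ia (−2.34), and Insr, the insulin receptor, 129 and 557 (−0.92). The summed log2 ratio was −0.20 (−0.22 to −0.18), but it was 0.98 without Ad IIc in the comparison and 0.49 without Fabp4, so no direction is given for the list. A list of 18 measured genes of capillary fatty acid handling, which shares members with it, had 5 genes higher, 4 lower and a median of 0.30, and its counts are not read either. The fatty acid transporter Slc27a1 was lowest there, with 31.5 CPM in Ad IIa and 669 in Ad Ia (−3.23).

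Adipocyte genes chosen as more restricted to fat cells were low in Ad IIa, but they were not at 0. Of 28 measured, 0 were more than 2-fold higher and 24 were lower (18.5% of all genes), with a median log2 ratio of −1.78 and a lowest of −3.37 for Tshr. The list summed to 15529 CPM (15310 to 15750) in Ad IIa. Ad Ia, Ad Ib, Ad IIb and Ad IIc had sums of 41582, 26386, 7738 and 67208 CPM, and 24554 was found in the unlabelled barcodes. The log2 ratio of the sum was −1.65 (−1.68 to −1.63), and −0.70 without Ad IIc in the comparison. Ad IIa thus held the second lowest level, above Ad IIb.

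Adipoq, which encodes the fat hormone adiponectin, had 556 UMIs, or 449 CPM (413 to 488), in Ad IIa. The labels Ad Ia, Ad Ib, Ad IIb and Ad IIc had 453, 299, 256 and 2513 CPM, and the unlabelled barcodes 749 (log2 −1.79, −1.94 to −1.65). Ad IIa and Ad Ia did not differ in Adipoq beyond counting error. Plin1, the coat protein of the fat droplet, did differ between them, with 97.0 CPM in Ad IIa and 808 in Ad Ia (444 in Ad IIc). Cfd, the secreted protease adipsin, had 3190 CPM in Ad IIa, 1838 in Ad Ia, 1272 in Ad IIb and 15981 in Ad IIc. Car3, a cytosolic carbonic anhydrase abundant in fat, had 5316, 5376, 2245 and 25484 CPM in the same labels. The hormone resistin, Retn, had 587 CPM in Ad IIa, 564 in Ad Ia and 2945 in Ad IIc.

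Receptor genes had the lowest ratios of the list. Ghr, the growth hormone receptor, had 632 CPM in Ad IIa against 18127 (Ad Ia), 8175 (Ad Ib), 632 (Ad IIb) and 1098 (Ad IIc) (−2.86). Tshr, the thyrotropin receptor, had 30.7 CPM in Ad IIa and 1247 in Ad Ia (−3.37), Acvr1c 42.8 and 1045 (−2.96), and the beta-3 adrenergic receptor Adrb3 37.2 and 696 (−2.88). At equal depth, the share of Ad IIa nuclei with a UMI of these 4 receptors or of Plin1 did not exceed, beyond counting error, the share of unlabelled barcodes with macrophage genes. The shares are given with the other single genes below, and these Ad IIa levels are not read as expression or as its absence. Relative to Ad Ia, single genes ranged from 2.46% to 179%, and 8 of 28 were above it.

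Relative to Ad IIc, the median of the same genes was 21.1% of the Ad IIc level, and 20 of 28 genes lay between 10% and 30%. Relative to the unlabelled barcodes, 27 of 28 were lower, with a median of 59.8%, and 26 lay between 40% and 100%. All 20 endothelial identity genes were above the unlabelled level. The part of free RNA in the adipocyte levels was not tested.

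**Figure D2:**
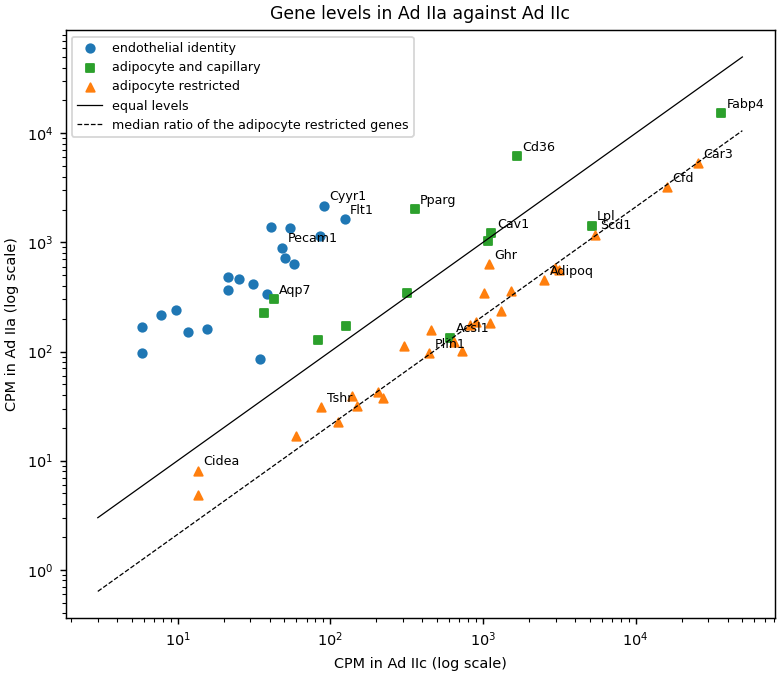
Level of each gene in Ad IIa (vertical axis, CPM, log scale) against its level in Ad IIc (horizontal axis, CPM, log scale), for endothelial identity genes, 27 of the 28 adipocyte genes and shared genes, with a solid line at equal levels and a dashed line at 21.1% of the Ad IIc level. Most adipocyte genes lie near the dashed line (Adipoq 449 and 2513 CPM), and endothelial genes lie above the solid line.

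Against Ad IIb, the label with a like endothelial level, 13 of 27 adipocyte genes were more than 2-fold higher in Ad IIa (15.5% of all genes) and 0 lower, with a median of 0.85. Cebpa, a transcription factor of fat cell formation, had 121 CPM in Ad IIa and 28.4 in Ad IIb, the lipase Pnpla2 357 and 135, and the desaturase Scd1 1172 and 568. The Ad IIb level of Cebpa rests on few UMIs. Against Ad Ia, 0 of 27 were higher and 16 lower (19.2% of all genes), and against Ad IIc 25 of 28 were lower (22.4% of all genes; median −2.24).

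Both gene groups were found in the same nuclei. At least 2 different endothelial identity genes together with at least 1 adipocyte gene were present in 584 of 590 Ad IIa nuclei (99.0%, 97.8 to 99.6), with 2 nuclei holding endothelial genes alone and 4 adipocyte genes alone. The median nucleus had 23 endothelial UMIs (1.26% of its nuclear-encoded UMIs) from 10 genes and 25 adipocyte UMIs (1.43%) from 9 genes. With every nucleus thinned to 500 UMIs, the share was 93.6% (552 nuclei, 91.3 to 95.4), and 87.6% held 2 or more genes of each group.

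The thinned share was 89.7% in Ad IIb, 23.7% in Ad Ib, 14.2% in Ad Ia and 5.47% in Ad IIc. Barcodes without a label but with genes of other cell types served as a reference for adipocyte RNA. That they express none of their own was assumed and not tested. These were 404 barcodes with at least 3 macrophage genes (median 1053.5 UMIs) and 314 with at least 3 T and NK cell genes (median 1025.5 UMIs). At 500 UMIs, at least 1 adipocyte gene was found in 98.8% of Ad IIa nuclei, 81.2% of the macrophage-marked and 71.7% of the T and NK-marked barcodes. The adipocyte sum was 15529 CPM in Ad IIa, 9775 in the macrophage-marked and 7841 in the T and NK-marked barcodes. The median nucleus or barcode had 1.43%, 0.476% and 0.300% of its nuclear-encoded UMIs from adipocyte genes, a wider gap than that of the sums. Single macrophage-marked barcodes held up to 287 adipocyte UMIs and up to 20 different endothelial genes, and no doublet caller was run on the unlabelled barcodes. At least 1 adipocyte gene was also found in 100% of Ad Ia, 99.3% of Ad Ib, 93.1% of Ad IIb and 100% of Ad IIc nuclei. The share with both groups therefore follows the share with endothelial genes, which was 94.7% in Ad IIa and 5.47% in Ad IIc, and its contrast between labels adds nothing on the adipocyte genes. The endothelial sum was 13113, 2129 and 1051 CPM in Ad IIa and the 2 kinds of marked barcode, and the share with both groups was 9.16% and 1.59% in the marked barcodes.

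Single adipocyte genes stood closer to those barcodes than endothelial genes did. At 500 UMIs, Adipoq was found in 16.9% of Ad IIa nuclei, 8.66% of macrophage-marked and 10.2% of T and NK-marked barcodes. Cfd was found in 66.8%, 38.6% and 32.8%, Car3 in 81.7%, 52.5% and 44.9%, and Retn in 23.1%, 11.4% and 8.28%. Ghr (24.9%, 24.8% and 19.1%), Plin1 (4.92%, 4.70% and 2.55%), Acvr1c (2.20%, 2.23% and 3.82%) and Adrb3 (2.20%, 2.48% and 1.59%) were at or near that background. Tshr, at 0.678% (0.185 to 1.73) in Ad IIa, was below the macrophage-marked barcodes (4.70%, 2.85 to 7.25) and overlapped the T and NK-marked ones (2.87%, 1.32 to 5.37) in its interval. These 5 genes are not read as expressed in Ad IIa. They are not read as absent either, since a comparison with barcodes that may hold doublets cannot show absence. Cidec, at 22.9% (19.5 to 26.5), lay within counting error of the macrophage-marked barcodes (18.3%, 14.7 to 22.4) but above the T and NK-marked ones (7.96%). Pparg, at 54.4%, 9.65% and 4.78%, and Cd36, at 90.3%, 29.7% and 9.55%, were far above it. Of the endothelial genes, Pecam1 was found in 32.0%, 4.70% and 9.87%, Cdh5 in 25.9%, 2.48% and 0.637%, and Flt1 in 46.9%, 3.47% and 1.59%.

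Within Ad IIa, nuclei with more endothelial genes held somewhat fewer adipocyte UMIs. At 500 UMIs, 184 nuclei with 0 to 3 different endothelial genes held a mean of 8.43 adipocyte UMIs, 361 nuclei with 4 to 7 held 6.94, and 45 nuclei with 8 or more held 5.16. The UMIs of a nucleus share a fixed total, so these means are not independent. Without thinning, Adipoq was found in 219 of 425 nuclei with Pecam1 (51.5%) and in 66 of 165 without, and Pparg in 364 of 425 (85.6%) and 123 of 165 (74.5%). Depth was not held equal in these counts, and its part in them was not tested.

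**Figure D3:**
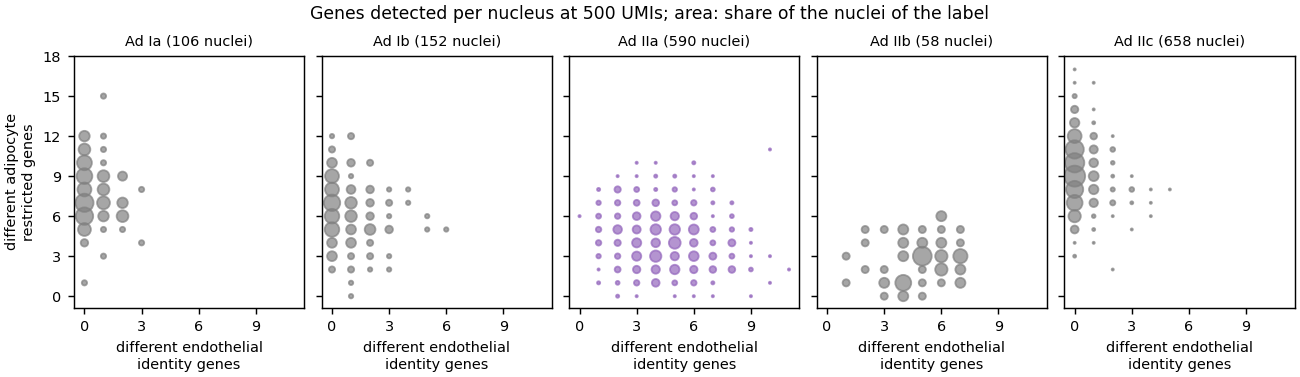
Number of different adipocyte genes (vertical axis) against different endothelial identity genes (horizontal axis) per nucleus at 500 UMIs, 1 panel per label, with circle area giving the share of that label's nuclei. Ad IIa nuclei spread over both axes, with the most nuclei (28) at 5 endothelial and 4 adipocyte genes, while Ad IIc has the most (99) at 0 endothelial and 9 adipocyte genes.

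Cd247 encodes the zeta chain of the T cell receptor complex (ENSMUSG00000005763, chromosome 1, 165779952 to 165871153). It had 164 UMIs, or 133 CPM (113 to 154), in Ad IIa against 13.9 (Ad Ia), 24.9 (Ad Ib), 28.4 (Ad IIb) and 3.87 (Ad IIc) (log2 3.41, 2.59 to 4.50). It fell with depth within Ad IIa, from 209 CPM (146 to 289) in the shallowest group of nuclei to 110 (86.6 to 137) in the deepest, of 3 groups of about equal size. The unlabelled barcodes had 74.6 CPM and the T and NK-marked ones 511. Cd247 is on the list by which the latter were chosen, so their level and share are partly fixed by the choice. A UMI was found in 116 Ad IIa nuclei (19.7%). Of these nuclei 2 held any other T or NK gene and 0 held Cd3e, Cd3d or Cd3g. The other 21 genes of the T and NK list had 17 UMIs in all Ad IIa nuclei, and 15 of the 22 were at 0. At 500 UMIs Cd247 was found in 6.44% of Ad IIa nuclei, 0.990% of macrophage-marked and 23.9% of T and NK-marked barcodes. Nuclei with Cd247 had a median of 11.5 endothelial genes and 2105.5 UMIs, and nuclei without it 10 genes and 1846.5 UMIs.

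The 25 genes with the largest ratios, among those with at least 50 UMIs and 50 CPM in Ad IIa, held no member of the endothelial identity list, and Ad IIb was the highest other label for 16 of them. Col28a1, a collagen chain, led with 122 UMIs against 1 in the other labels (log2 5.93, 4.00 to 11.82). Slc1a1, Slc28a2 and Kcnc2 came next, and the share of transporters and channels over all genes was not counted. The glutamate transporter Slc1a1 had 57.4 CPM (3.93, 2.53 to 6.45), the nucleoside transporter Slc28a2 319 CPM (3.71, 3.12 to 4.43) and the potassium channel Kcnc2 428 CPM (3.69, 3.19 to 4.30). Kirrel3, an adhesion molecule of the immunoglobulin family, had 180 CPM (3.62). Ccdc85a, also among the 25, had 1834 CPM in Ad IIa, 796 in Ad IIb and 56.2 in Ad IIc (3.03).

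Set against the highest of the other labels for each gene, the 10 largest ratios were 3.24 for Col28a1, 2.61 for Aqp1, 2.56 for Car4, 2.40 for Slc28a2, 2.35 for Bmp6, 2.12 for Samd5, 2.06 for Cd247, 1.87 for Kcnc2, 1.80 for Lmo1 and 1.79 for Ctla2a. Some intervals were wide, as for Col28a1 (1.32 to 9.14), Samd5 (0.54 to 5.50), Cd247 (0.84 to 4.11) and Lmo1 (0.21 to 5.18). Bmp6 had a narrower one (1.77 to 3.06). The order within the 10 is therefore not read. Slc28a2 had 56.8 CPM in Ad IIb, Kcnc2 114 and the LIM-domain factor Lmo1 14.2 against 61.4 in Ad IIa. Of the 10, Col28a1 was found in 74 nuclei (12.5%) and Bmp6 in 374.

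**Figure D4:**
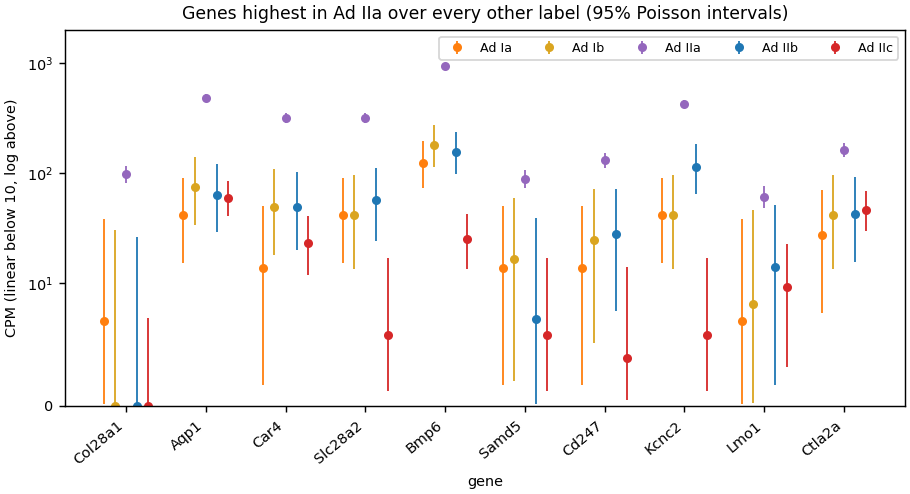
Level (vertical axis, CPM, linear below 10 and log above) of the 10 genes with the largest ratio of Ad IIa over the highest other label (horizontal axis), for the 5 labels, with bars for exact Poisson intervals of 1 library. The genes were chosen by that ratio, so Ad IIa lies above the other 4 labels for each by the choice, as for Bmp6 at 951 CPM against at most 183.

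At the other end, the 25 lowest genes were mostly those of Ad Ia, which was the highest label for 21, with Ad Ib highest for 3. Ppara, the nuclear receptor of fatty acid oxidation, had 2 UMIs in Ad IIa, against 362 CPM in Ad Ia and 183 in Ad Ib (−5.40, −8.78 to −3.81). Slc1a3, another glutamate transporter, had 100 CPM in Ad IIa and 7619 in Ad Ia (−4.37), opposite in direction to Slc1a1. The oestrogen receptor Esr1 had 12.9 and 557 CPM (−3.73), and the lipid droplet enzyme Pnpla3 17.8 and 947 (−3.76). Egfr, the epidermal growth factor receptor, had 4.85 and 153 CPM (−3.47). Nebl, an actin-binding protein, was the gene that marked Ad IIb instead, with 412 CPM there and 4.04 in Ad IIa. Insulin and growth factor receptor genes were higher in 4 of 12 measured (17.2% of all genes) and lower in 7 (18.5%; median −2.05), with Igf1r at 465 CPM in Ad IIa, 174 in Ad Ia and 21.3 in Ad IIc (1.89) and the insulin adaptor Irs1 at 25.9 and 543 CPM in Ad IIa and Ad Ia (−2.57).

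The Ad IIa nuclei were not all alike. The authors' finer clustering placed 498 of them in cluster 1, 54 in cluster 3, 35 in cluster 4 and 3 in cluster 5. Clusters were built on these genes, so the values describe them. Cluster 3 had the higher adipocyte sum, 25859 CPM against 14607 in cluster 1, and the lower endothelial sum, 10310 against 13527. Adipoq was at 827 CPM there against 416 in cluster 1, and Car3 at 10182 against 4860. Set against all other Ad IIa nuclei, the synthase Fasn was at 505 CPM against 210 and Cdo1, a cysteine dioxygenase of fat, at 1038 against 405 (1.36). Plin1 was at 211 CPM in cluster 3 against 86.0 in those other nuclei (1.32, 0.57 to 1.97). Pparg was at 1718 CPM in cluster 3 and 2118 in cluster 1.

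Cluster 4 had the higher venous sum, 1664 CPM (1382 to 1987) against 351 in cluster 1, although it held 122 of the 538 venous UMIs of Ad IIa and cluster 1 held 367. The venous gene Vwf, which encodes a clotting protein, was at 150 CPM (74.9 to 268) against 8.60, and Nr2f2, a nuclear receptor of veins, did not differ beyond its interval (136, 65.4 to 251, against 82.1). Other sums were higher in cluster 4 too, with fibroblast and progenitor genes at 518 CPM (367 to 711) against 243 and lymphatic genes at 300.0 (188 to 454) against 50.6, and the nucleus with 12 lymphatic marker UMIs lies there. Plvap had 26 of its 40 Ad IIa UMIs in these 35 nuclei (log2 4.86 over the other Ad IIa nuclei, 3.89 to 5.93). The interleukin receptor Il1r1 had 20 UMIs there against 11 in the other nuclei, and the leading gene Kirrel3 102 against 121. Capillary genes did not move together there. Car4 was at 95.5 CPM (38.4 to 197) against 340 in cluster 1, while Aqp1 was at 859 (660 to 1099) against 452 (412 to 494), and the sum of the capillary list was 19298 against 25113. Bmp6 was at 259 CPM against 995 and Pparg at 914 against 2118. Part of the Kirrel3 level of Ad IIa thus came from 35 of its nuclei.

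The endothelial and adipocyte sums differed little with depth, and some smaller sums fell with it. In 3 groups of Ad IIa nuclei ordered by UMIs (197, 197 and 196 nuclei), the endothelial sum was 12115, 13528 and 13143 CPM from the shallowest to the deepest. The adipocyte sum was 14519, 15358 and 15865 CPM. The fibroblast and progenitor sum was 481, 248 and 214 CPM, and the T and NK sum, mostly Cd247, 238, 157 and 118.

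**Figure D5:**
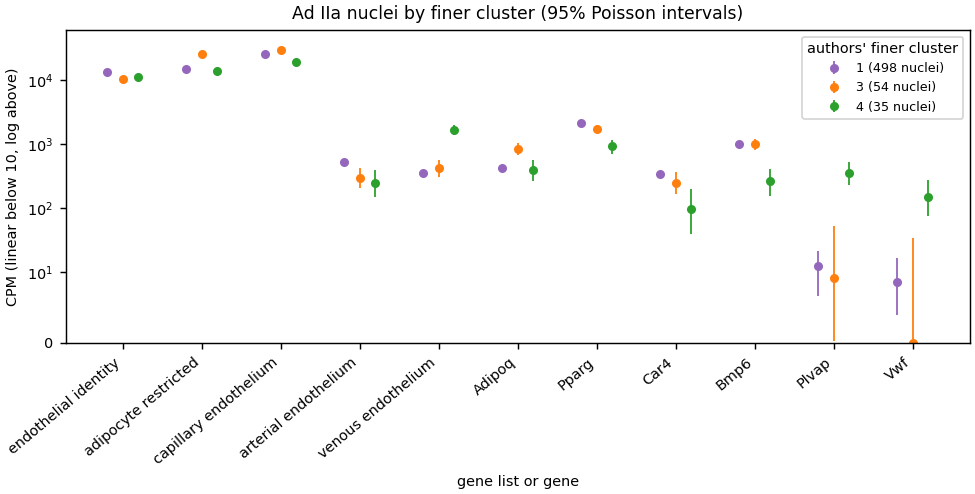
Level (vertical axis, CPM, linear below 10 and log above) of gene lists and genes (horizontal axis) in the Ad IIa nuclei of the authors' finer clusters 1, 3 and 4, with exact Poisson intervals. Cluster 3 is highest for the adipocyte sum (25859 CPM) and cluster 4 for the venous sum (1664 CPM against 351 in cluster 1).

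Markers of other cell types were low, apart from lists led by a gene with uses elsewhere. Macrophage genes were more than 2-fold lower in 7 of 12 measured (18.5% of all genes) and higher in 0 (17.2%), and at least 2 of them were found in 40 of 590 nuclei (6.78%). Fibroblast and progenitor genes were lower in 8 of 12 and higher in 2, and mural genes lower in 4 of 9 and higher in 1, beside the same shares. In the B cell list Ebf1, a factor also used by adipocytes, held 2784 of 2857 UMIs, and in the dendritic list Zbtb46, which endothelium also expresses, held 515 of 546 (2.33). The mesothelial genes had 2 UMIs with 6 of 8 at 0, the Schwann and neuronal genes 39 UMIs, the epididymal and germ cell genes 1 UMI with 9 of 10 at 0, and the cell cycle genes 6 UMIs. Erythroid genes were at 133 CPM against 9563 in the unlabelled barcodes. Genes of dissociation stress summed to 713 CPM in Ad IIa, between 494 in Ad Ia and 866 in Ad IIc.

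The same label covers 231 nuclei of the thymic library, and there the adipocyte genes were far lower. The endothelial identity sum was 17225 CPM in thymic and 13113 in epigonadal Ad IIa, while the adipocyte sum was 2650 against 15529. Adipoq was at 9.96 CPM in thymic Ad IIa against 449, Cfd at 144 against 3190 and Car3 at 321 against 5316. Among the genes above every other epigonadal label, thymic Ad IIa levels are given for Bmp6 (1756 CPM), Car4 (336), Aqp1 (610) and Cd247 (157) only. Ratios of Ad IIa over the other labels of its own library were smaller in the thymic one for the endothelial genes and Cd247. The log2 ratio was 0.76 against 2.01 for the endothelial sum, 0.48 against 1.63 for Pecam1 and 1.01 (0.09 to 2.20) against 3.41 for Cd247. The adipocyte sum was at −2.11 against −1.65. With 1 library used for each tissue, the difference between them cannot be told apart from a difference between preparations.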

How the data were processed

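RNA of single nuclei was read with 10x droplets. The deposited matrices are raw UMI counts, and cellranger 7.2.0 made them, per the file headers. The authors' table gives each nucleus a label, a doublet class and its mitochondrial percent. The submitters' processing notes name mm10, Seurat 5.1.0 and Cell Ranger ARC 2.0.2. For the annotation and intron counting: not given in the sources used here. Introns counted would favour long genes in nuclei, so levels are compared between labels, and no order of genes by level is drawn.

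UMIs were summed per label, scaled to nuclear-encoded totals (CPM) and compared as log2 ratios with 0.5 UMI added (Python 3.11.15, numpy 2.4.6, scipy 1.17.1, pandas 2.3.3). The counting was tested on simulated data. Sums had exact Poisson, ratios exact binomial and shares Clopper-Pearson intervals, all at 95%. With 1 library there was no test, and a gene counted as higher or lower past 2-fold, among genes that reached 10 UMIs with both sides added. All labelled nuclei were classed as singlets by the authors, and no other caller was run. The libraries shared 147 barcodes, 19 of them Ad IIa, and 0 were labelled in both. Thinning drew 500 UMIs per nucleus. Alternatives were edgeR 4.0.16 TMM and median-of-ratios scaling, other totals, weights, minimums, depths and comparators, and subtraction of the unlabelled profile.

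The 31 gene lists, like the label itself, were chosen with earlier results of these data known. Named were the members of the endothelial identity, adipocyte and shared lists, the 4 highest and 2 lowest of other lists and members needed to account for them, and the 25 largest ratios in each direction where the higher side reached 50 UMIs and 50 CPM. The 10 largest ratios over the highest other label were named too. 1 member of the adipocyte list, counted in its sums, is not reported here. The rankings held no mitochondrial, ribosomal protein or predicted genes.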

Additional observations from a re-analysis of the deposited data

Results flagged for a closer look

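The summed level of the 12 genes shared by adipocytes and capillary endothelium had opposite signs in the libraries. Ad IIa over the other labels was at a log2 ratio of −0.198 (−0.22 to −0.18) in the epigonadal and 0.17 (0.10 to 0.23) in the thymic library. With 1 library on each side the difference was not tested, and the epigonadal value changed sign under 4 of 12 alternatives.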

How the results depend on the processing

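No paired analysis was possible because each group is 1 library and the labels carry no shared replicate numbers. The endothelial sum (log2 2.01) stayed above 0 under all 11 alternatives and the adipocyte sum (−1.65) below 0 under all 11. In that order, the endothelial, adipocyte and shared sums (main value −0.20) were 1.64, −2.02 and −0.57 with median-of-ratios scaling, 2.85, −1.84 and −0.40 with equal weight per nucleus, 1.26, −1.31 and 0.0933 for nuclei with at least 1000 UMIs, 2.82, −1.88 and −0.41 thinned to 500 UMIs, 1.42, −1.20 and 0.33 with an equal mix of the other labels, 1.03, −0.70 and 0.98 without Ad IIc, and 2.26, −2.03 and −0.28 with the unlabelled profile subtracted. The adipocyte and shared sums were −1.60 and −0.15 with TMM scaling, and −1.70 and −0.25 with totals without Gm42418, AY036118 and Malat1. Alternatives chosen after seeing the data gave −1.74 for the adipocyte sum in finer cluster 1 alone and 0.49 for the shared sum without Fabp4. The 1871 genes more than 2-fold higher became 1081 with median-of-ratios scaling, 1119 for nuclei with at least 1000 UMIs, 1179 with the equal mix, 1239 without Ad IIc, 3445 with no minimum and 1211 with at least 50 UMIs, and the 2015 lower became 3072 with median-of-ratios scaling, 5974 with no minimum and 951 with at least 50 UMIs. The share of nuclei with both gene groups (99.0%) was 93.6% thinned and 100% with at least 1000 UMIs. The cause was not tested, except that a minimum on UMIs changes how many genes are counted. Depth limits the single genes of Ad IIb, with 58 nuclei.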
